A study of Mus musculus with 9 samples.

Results

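The 9 genes described here encode the opioid and tachykinin peptides and their receptors, and they were chosen by name from the 53465 genes of the count table. They were the precursors of the enkephalins (Penk), the dynorphins (Pdyn), nociceptin (Pnoc) and substance P (Tac1), together with the mu, delta, kappa and nociceptin receptors (Oprm1, Oprd1, Oprk1, Oprl1) and the NK1 receptor for substance P (Tacr1). All 9 genes passed the filter on low counts, which left 18501 genes to test. Their summed count ranged from 1406 to 10660 reads per library.

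Polyadenylated RNA was measured in the whole brain of male C57BL/6 mice, which were 7 weeks old at the start. Each mouse gave 1 library, and each group had 3. Control mice (CON) received saline. Mice of the diabetic neuropathic pain group (DNP) were fed a 60% high-fat diet over 4 weeks, were injected with streptozotocin, a toxin of insulin-producing cells, at 50 mg/kg daily on 7 days, and then received saline. Mice of the baclofen group (BAC) had the same diet and streptozotocin and were then given 8 mg/kg of baclofen, which activates GABA-B receptors, daily on 7 days. CON mice differed from DNP mice in both diet and streptozotocin, so the 2 exposures cannot be told apart, and no group received baclofen without diabetes.

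Opioid peptides are cut from large precursor proteins at pairs of basic residues, stored in dense-core vesicles and released to act on receptors coupled to inhibitory Gi/o proteins, which open potassium channels and close calcium channels. Enkephalins act mainly on the delta and mu receptors, dynorphins on the kappa receptor and nociceptin on its own receptor, whereas substance P acts on the Gq-coupled NK1 receptor and promotes pain transmission in the spinal cord. In the striatum, Pdyn and Tac1 mark projection neurons of the direct pathway, which carry the dopamine receptor Drd1, and Penk marks those of the indirect pathway, which carry Drd2 and Adora2a.

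The precursor genes differ in how many copies of the active peptide they encode, and the coding sequences of the shared core are shown because they set what 1 transcript can yield. Within the GRCm38 assembly, Penk (chr4:4133531-4138819, minus strand, 2 exons) encodes a protein of 268 residues that holds 7 copies of the core tyrosine, glycine, glycine, phenylalanine, followed by methionine in 6 copies and by leucine in 1. Pdyn (chr2:129686565-129699844, minus strand, 4 exons) encodes 248 residues with 3 leucine copies. In the sequences below, read 5′ to 3′ on the coding strand, capitals mark the last codon, which separates the methionine form from the leucine form.
Penk copy 1 (chr4:4134334-4134348): tacggaggcttcATG
Penk copy 3 (chr4:4134226-4134240): tatggcggcttcATG
Penk copy 6 (chr4:4133941-4133955): tatgggggcttcCTG
Pdyn copy 1 (chr2:129688238-129688252): tatggcggctttTTG
Pdyn copy 2 (chr2:129688130-129688144): tatgggggcttcCTG
Pdyn copy 3 (chr2:129688073-129688087): tatggtggtttcCTG
The leucine copy of Penk and copy 2 of Pdyn were identical in all bases shown, whereas the 7 Penk copies held 6 distinct sequences.

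Pnoc and Tac1 carry different cores. Pnoc (chr14:65400673-65425472, minus strand, 4 exons, 187 residues) encodes 1 nociceptin, which starts with phenylalanine in the place of the tyrosine. Tac1 (chr6:7554879-7565834, plus strand, 7 exons in the transcript used, 130 residues) encodes 2 tachykinin ends, of substance P and of neurokinin A, and both close with glycine, leucine and methionine. The capitals mark the last codon of each stretch.
Pnoc start of nociceptin (chr14:65404881-65404892): tttgggggcTTC
Tac1 end of substance P (chr6:7556750-7556764): ttctttggattaATG
Tac1 end of neurokinin A (chr6:7559116-7559130): tttgttggactaATG
The receptor genes were Oprm1 (chr10:6758506-7038198, plus strand), Oprd1 (chr4:132110726-132144486, minus strand), Oprk1 (chr1:5588466-5606131, plus strand), Oprl1 (chr2:181715016-181720985, plus strand) and Tacr1 (chr6:82402334-82560104, plus strand), and their proteins had 367 to 407 residues. RefSeq promoter windows of the 250 bases before the start (GRCm38.p6) were found for 6 of the 9 genes. The letters CGTCA, searched on both strands as the core of the cyclic AMP response element, occurred 2 times in the window of Tac1 and 1 time in that of Tacr1. They did not occur in the windows searched for Pdyn, Oprm1, Oprd1 and Oprl1, and 17.9% of 27025 promoter windows, 1 per gene, held them. Only the first listed window of a gene was searched, whereas Pdyn had 2 listed and Oprm1 and Oprl1 had 3 each.

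The libraries differed in the brain regions they held, and this has to be read with each value below. Library totals ranged from 13107382 to 16008129 counts. The mitochondrial share of the counts was 4.34% to 5.36% in CON and 5.94% to 7.23% in DNP and BAC, and its part in the differences from CON was not tested. A score for each list of regional markers was taken as the mean over its genes of log2 CPM, the count scaled to a common library size,, relative to the mean of all 9 libraries. The caudal hindbrain score was 3.94 in DNP replicate 1, 4.63 in BAC replicate 1 and 4.82 in BAC replicate 3, and it lay between −2.57 and −1.43 in the other 6 libraries. In those 6 libraries Hoxa3, Hoxa4, Hoxa5, Hoxb3 and Hoxc4, which mark the caudal hindbrain and spinal cord, had no count. The cerebellar score was highest in CON replicate 2 (4.15) and lowest in DNP replicate 3 (−3.79), and only 4 of 10 hypothalamic markers passed the filter, with at most 90 reads over all 9 libraries for each of the other 6. The striatal score, over 14 markers of medium spiny neurons, was 1.46, −1.62 and −0.26 in CON replicates 1 to 3, −1.37, 1.60 and 0.81 in DNP replicates, and −1.41, 1.90 and −1.11 in BAC replicates. The label whole brain therefore covered libraries with unlike regional markers, and in such bulk RNA fewer cells of a type and less RNA per cell cannot be told apart.

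Per length, Penk was the most abundant of the 9 genes in each group. Its mean was 52.7 ± 34.6 FPKM (SD, n = 3) in CON, 103 ± 70.2 in DNP and 113 ± 81.1 in BAC, and in each group its lowest library lay above the highest library of the next gene, Pdyn. Pdyn followed with 5.99 ± 4.50, 12.4 ± 8.52 and 11.0 ± 12.0 FPKM. Oprm1 was the lowest gene in each group, with 0.0714 ± 0.0550, 0.120 ± 0.103 and 0.230 ± 0.0834 FPKM, and its libraries lay apart from those of the next gene, Tacr1, in DNP and BAC but not in CON. Between these ends most neighbours overlapped. In CON the order ran from Pdyn over Oprd1, Tac1, Oprl1, Pnoc and Oprk1 to Tacr1, and each of these overlapped with the next. In DNP, Oprl1 at 2.26 ± 0.843 FPKM lay apart from Oprk1 at 0.999 ± 0.359 FPKM, and in BAC, Pnoc at 2.78 ± 1.48 FPKM lay apart from Oprk1 at 1.04 ± 0.526 FPKM. The lengths implied by count and FPKM were 14590 bases for Oprm1, 14494 for Oprl1, 13999 for Oprk1 and 12058 for Tacr1 against 2170 for Penk, and FPKM divides each count by that length.

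The enkephalin precursor Penk was measured at 213, 67.9 and 75.9 CPM in CON replicates 1 to 3, at 99.2, 393 and 174 CPM in DNP and at 134, 458 and 142 CPM in BAC. DNP replicate 2 and BAC replicate 2 were the highest libraries, CON replicates 2 and 3 were the lowest, and the 3 groups overlapped. The dynorphin precursor Pdyn was measured at 34.8, 4.13 and 21.1 CPM in CON, at 11.4, 65.7 and 41.3 CPM in DNP and at 13.7, 80.9 and 11.3 CPM in BAC. The same replicates 2 of DNP and BAC stood highest, and the range over all libraries was 19.6-fold. The substance P precursor Tac1 was measured at 32.4, 1.43 and 11.2 CPM in CON, at 11.5, 63.1 and 30.7 CPM in DNP and at 21.1, 86.0 and 32.9 CPM in BAC. Tac1 had the widest range of the 9 genes, at 60.3-fold between CON replicate 2 and BAC replicate 2.

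The nociceptin precursor Pnoc had another order of libraries. It was measured at 7.76, 2.85 and 3.93 CPM in CON, at 16.4, 5.19 and 11.9 CPM in DNP and at 6.68, 6.21 and 14.8 CPM in BAC. Here DNP replicate 1 and BAC replicate 3, both with a high hindbrain score, were highest, and DNP replicate 2, which was high in Penk, Pdyn and Tac1, lay within the range of CON. BAC replicate 1, with a hindbrain score of 4.63, lay within that range too. DNP replicate 3, with the lowest hindbrain score (−2.57), was next after the 2 highest libraries.

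**Figure D1:**
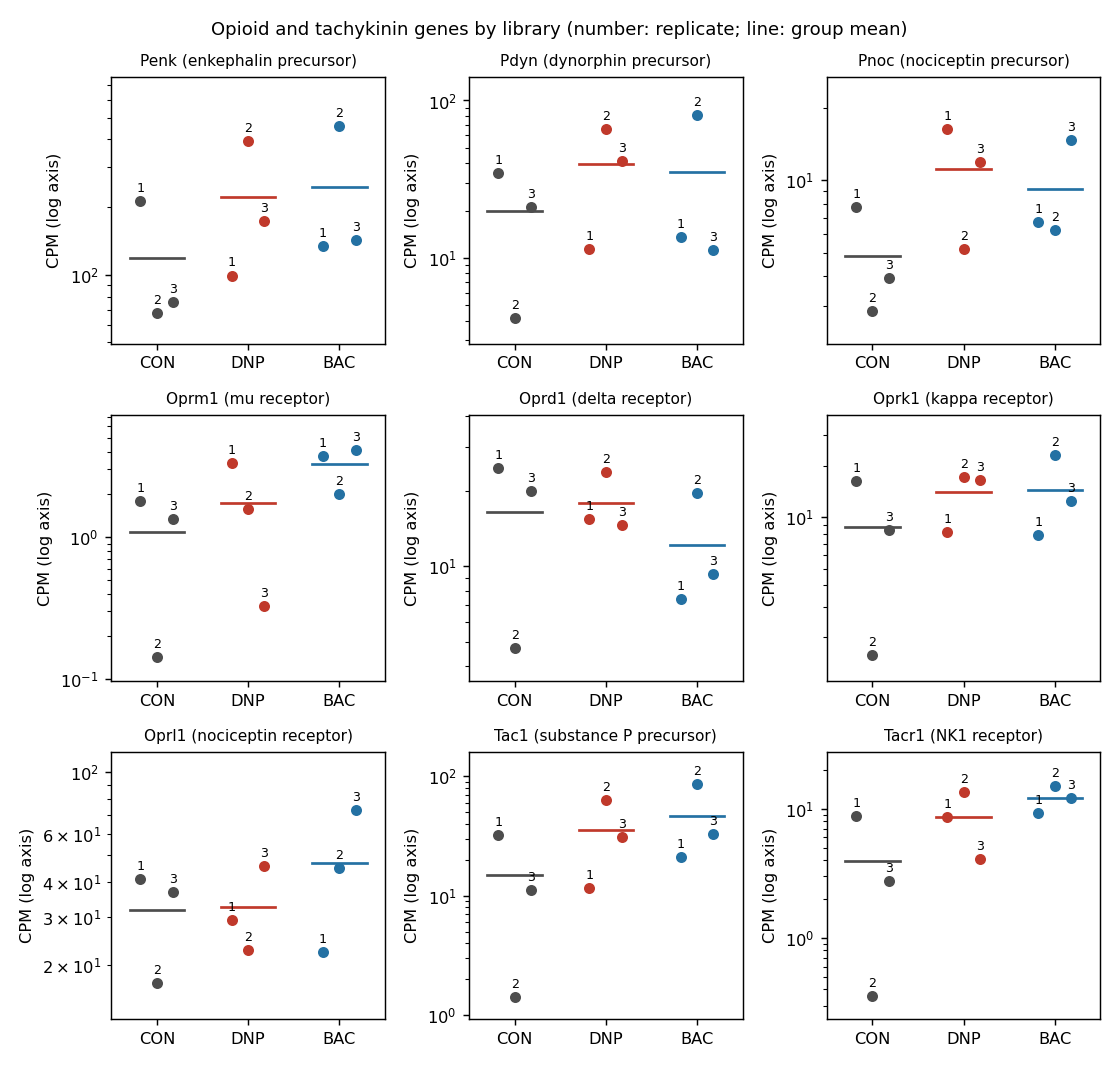
Level of each of the 9 genes in CPM (log axis, a separate scale per panel) in CON, DNP and BAC, with 1 point per library, the replicate number above it and a line at the group mean. CON replicate 2 is the lowest library in all 9 panels, and DNP replicate 2 and BAC replicate 2 are the highest in Penk, Pdyn and Tac1.

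The mu receptor Oprm1, the main target of morphine, had few reads. Its counts were 27, 2 and 19 reads in CON, 46, 23 and 5 reads in DNP and 51, 29 and 65 reads in BAC, and they correspond to 0.143 to 1.79 CPM, 0.328 to 3.33 CPM and 2.00 to 4.09 CPM. The lowest BAC library was above the highest CON library by a small margin of 2.00 against 1.79 CPM. The libraries were not strand-specific, and an exon of Ipcef1 on the opposite strand shares 96 bases with Oprm1. Ipcef1 had 386 to 1814 reads per library, so reads from these bases cannot be assigned with certainty. The share of such reads was not tested. Penk likewise shares 233 bases of exon with the antisense transcript A830012C17Rik, which had 2 to 37 reads.

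The delta receptor Oprd1, a target of the enkephalins, was measured at 24.9, 4.70 and 20.0 CPM in CON, at 15.5, 23.9 and 14.7 CPM in DNP and at 7.41, 19.7 and 9.32 CPM in BAC. It was the one gene of the 9 with a lower mean in BAC (12.1 ± 6.60 CPM) than in CON (16.5 ± 10.5 CPM), and BAC replicates 1 and 3, the libraries with hindbrain markers, were its lowest after CON replicate 2. The kappa receptor Oprk1, the dynorphin receptor, was measured at 16.3, 1.57 and 8.43 CPM in CON, at 8.18, 17.2 and 16.4 CPM in DNP and at 7.85, 23.1 and 12.4 CPM in BAC. Its highest library was again BAC replicate 2, and its groups overlapped.

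The nociceptin receptor Oprl1 varied least, with a range of 4.27-fold over all libraries. It was measured at 41.1, 17.2 and 36.9 CPM in CON, at 29.1, 22.7 and 45.9 CPM in DNP and at 22.3, 45.0 and 73.4 CPM in BAC. The NK1 receptor Tacr1 was measured at 8.82, 0.356 and 2.74 CPM in CON, at 8.62, 13.4 and 4.07 CPM in DNP and at 9.30, 15.1 and 12.1 CPM in BAC. All 3 BAC libraries exceeded the highest CON library, by 9.30 against 8.82 CPM at the nearest, and CON replicate 2 had 5 reads. That library was the lowest of all 9 libraries for each of the 9 genes, and it had the highest cerebellar score. The part of its regional content in these values was not tested.

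The first comparison asked whether the diabetic neuropathic pain model changed the expression of these genes. In DNP all 9 genes had a higher fitted mean than in CON, and none of them passed the test. The median log2 fold change of the 9 genes was 0.90, against 0.01 over all 18501 genes tested. By edgeR's quasi-likelihood test 0 of 9 genes had an adjusted p under 0.05 (Benjamini-Hochberg), as did 0% of all genes, and 0 of 9 had an unadjusted p under 0.05, against 11.2% of all genes. None of the 9 genes had groups that did not overlap, against 18.2% of all genes. DESeq2, run as an alternative, called 346 of all genes in this comparison, 7 in BAC against DNP and 101 in BAC against CON at an adjusted p under 0.05, and 0 of the 9 genes in each.

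Among the peptides, the log2 difference of DNP from CON was 0.90 ± 0.69 (SE) for Penk, 0.98 ± 0.98 for Pdyn, 1.22 ± 1.00 for Tac1 and 1.20 ± 0.55 for Pnoc. Pnoc was nearest to the threshold, with an unadjusted p of 0.0579 and an adjusted p of 0.459 in edgeR's quasi-likelihood test. Among the receptors, the log2 difference was 1.12 ± 0.85 for Tacr1, 0.67 ± 0.72 for Oprk1, 0.66 ± 0.88 for Oprm1, 0.12 ± 0.58 for Oprd1 and 0.04 ± 0.48 for Oprl1. The standard error was at least as large as the difference for 5 of the 9 genes. Without CON replicate 2, 7 of 9 genes remained higher in DNP and 2, Oprd1 and Oprl1, were lower, and the median was 0.49. Without the 3 libraries with hindbrain markers, 8 of 9 were higher, with a median of 0.93, and Oprm1 was lower.

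The second comparison asked whether baclofen changed these genes in diabetic mice. BAC and DNP differed little against their spread: 6 genes were higher and 3 were lower in BAC, with a median log2 difference of 0.14 against −0.01 over all genes. By edgeR's quasi-likelihood test 0 of 9 genes had an adjusted p under 0.05, against 0% of all genes, and 0 of 9 an unadjusted p under 0.05, against 2.37% of all genes. All 9 pairs of groups overlapped, whereas 6.79% of all genes did not. The differences with the smallest unadjusted p were those of Oprl1 (0.53 ± 0.48 SE, unadjusted p = 0.301 and adjusted p = 0.998 by edgeR), Oprm1 (0.91 ± 0.85) and Oprd1 (−0.57 ± 0.58). Penk differed by 0.14 ± 0.69, Pdyn by −0.16 ± 0.97, Pnoc by −0.27 ± 0.54 and Tac1 by 0.41 ± 0.98 on the log2 scale. These intervals are wide, and without BAC replicate 2 the difference of Penk was −0.69 and that of Pdyn −1.66.

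In the third comparison, of BAC with CON, 8 genes had a higher fitted mean in BAC and 1, Oprd1, a lower one, with a median log2 difference of 0.93 against −0.02 over all genes. By edgeR's quasi-likelihood test 0 of 9 had an adjusted p under 0.05, against 0% of all genes, and 0 of 9 an unadjusted p under 0.05, against 7.76% of all genes. For 2 of 9 genes, Tacr1 and Oprm1, the groups did not overlap, against 13.4% of all genes. Tacr1 was higher by 1.61 ± 0.86 (log2, SE; unadjusted p = 0.0943, adjusted p = 0.671, edgeR) and Oprm1 by 1.57 ± 0.88 (unadjusted p = 0.108, adjusted p = 0.674, edgeR). Tac1 differed by 1.63 ± 1.01, Penk by 1.04 ± 0.70, Pnoc by 0.93 ± 0.55 and Oprd1 by −0.45 ± 0.58. The comparisons of DNP and of BAC with CON share the same 3 control libraries.

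**Figure D2:**
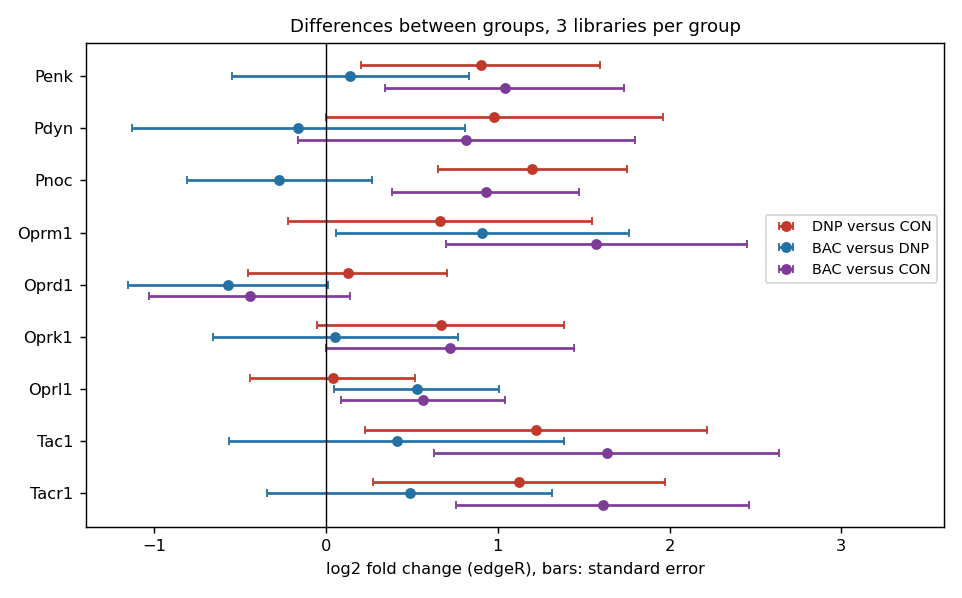
Log2 fold change of each of the 9 genes (x axis, edgeR) in DNP against CON, BAC against DNP and BAC against CON, with bars of 1 standard error and 3 libraries per group. All 9 points of DNP against CON lie above 0, and none of the 27 differences passed the adjusted threshold.

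These counts depended on 1 control library. Without CON replicate 1, which had the highest Penk, Pdyn and Tac1 of the controls and a striatal score of 1.46, 2 of 9 genes had an unadjusted p under 0.05 in DNP against CON, against 11.4% of all genes. These were Pnoc (1.72 ± 0.59) and Tacr1 (2.48 ± 0.81). In BAC against CON, 4 of 9 genes did so without that library, against 6.01% of all genes, namely Penk (1.77 ± 0.74), Pnoc (1.44 ± 0.59), Tac1 (2.88 ± 1.10) and Tacr1 (2.97 ± 0.83). The adjusted p of these 4 genes was 0.787 in edgeR's quasi-likelihood test. The groups explained 12.2% (Pdyn) to 46.3% (Tacr1) of the sum of squares of log2 CPM over the 9 libraries, and the median over all tested genes was 23.9%.

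Several of the 9 genes rose with the striatal score and fell with the cerebellar score across libraries. The 9 libraries differed in regional content and depth, which all genes of a library share. Over them, the Pearson correlation of log2 CPM with the striatal score was 0.94 for Pdyn (Spearman's rho 0.92), 0.85 for Penk (0.88), 0.79 for Oprd1 (0.78), 0.76 for Oprk1 (0.97) and 0.73 for Tac1 (0.80). Over the same 9 libraries it was 0.45 for Tacr1, 0.28 for Oprl1, −0.06 for Oprm1 and −0.07 for Pnoc. Without the 2 libraries farthest from the median score, the correlation was 0.88 for Pdyn, 0.76 for Oprd1, 0.68 for Penk, 0.67 for Oprk1 and 0.55 for Tac1. With the cerebellar score it was −0.93 for Pdyn, −0.83 for Penk, −0.81 for Oprk1, −0.77 for Tac1 and −0.76 for Oprd1. Without the 2 libraries farthest in that score these values were −0.93, −0.88, −0.83, −0.78 and −0.81. Which region set these levels was not tested.

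Oprd1 had its highest correlation with the cortex score (0.82), Tacr1 with the hypothalamic score (0.71) and Oprl1 with the hippocampal score (0.59). Without the 2 farthest libraries these were 0.79, 0.02 and 0.56. Pnoc and Oprm1 also had their highest values with lists other than the striatal one, whose markers did not move as one. Pnoc had 0.84 with the 4 tested hypothalamic markers, and 0.60 without the 2 farthest libraries. In DNP replicate 1 and BAC replicate 3, where Pnoc was highest, Otp had 27.8 and 12.7 CPM, whereas Nkx2-1 had 0.217 and 0.378 CPM there and 1.99 to 3.11 CPM in CON replicate 1, DNP replicates 2 and 3 and BAC replicate 2. Oprm1 had 0.78 with the 5 markers of the habenula, and 0.68 without the 2 farthest libraries. Of these markers Pou4f1 had 2.25, 8.14 and 28.2 CPM in DNP replicate 1, BAC replicate 1 and BAC replicate 3 and at most 0.428 CPM elsewhere, whereas Gpr151 was lowest in BAC replicates 1 and 3 (0.218 and 0.315 CPM). Oprm1 itself rested on few reads.

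**Figure D3:**
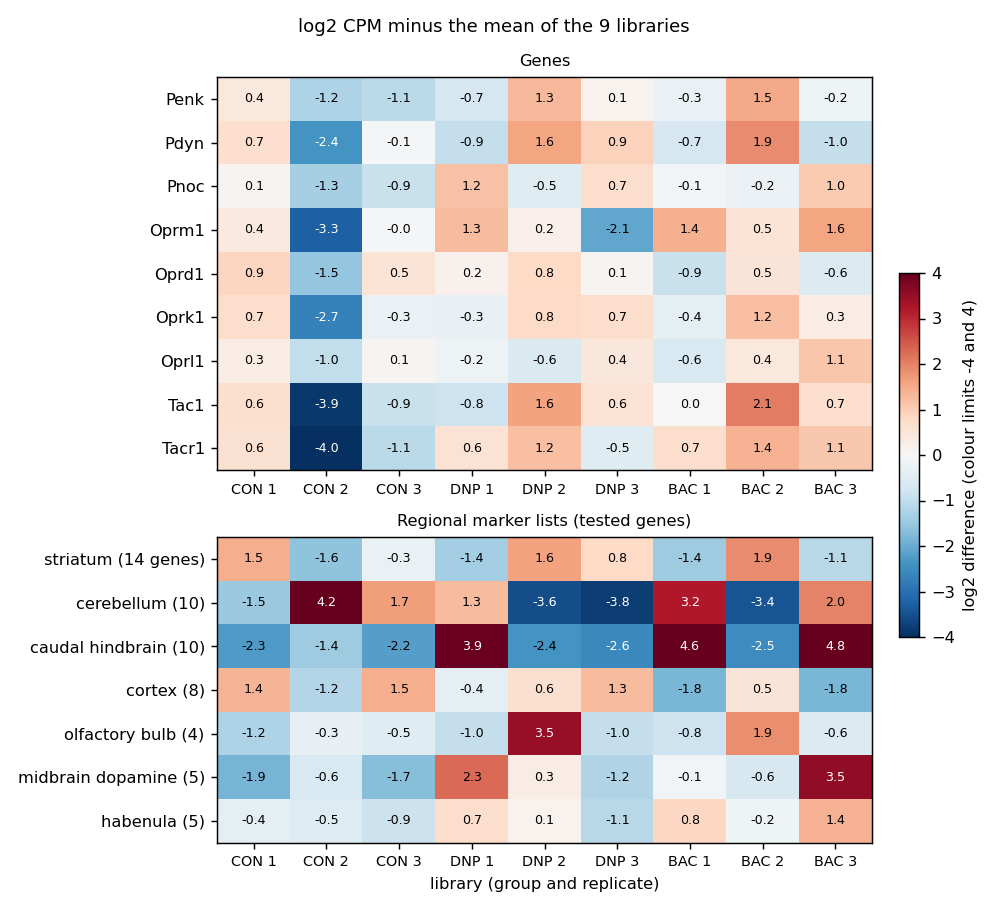
Log2 CPM of the 9 genes (upper block) and scores of 7 lists of regional markers (lower block) in each of the 9 libraries, as the difference from the mean of all libraries. Penk, Pdyn and Oprk1 have their 4 highest values in the libraries with the highest striatal scores (CON 1, DNP 2, DNP 3 and BAC 2), Tac1 is also high in BAC 3, where that score is −1.11, and the hindbrain score is positive in DNP 1, BAC 1 and BAC 3.

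In the 3 libraries with hindbrain markers, Pdyn and Tac1 were high relative to Drd1, whereas Penk differed by the marker it was set against. DNP replicate 1, BAC replicate 1 and BAC replicate 3 had 21, 23 and 21 reads of Drd1, against 18 reads in CON replicate 2 and 180 to 1137 reads in the other 5 libraries. Tac1 had 7.57, 12.6 and 24.9 reads per Drd1 read in these 3 libraries, and 0.724 to 1.20 in the other 6. Pdyn had 7.48, 8.17 and 8.52 reads per Drd1 read in them, and 0.779 to 3.22 in the other 6. For Penk the count per Adora2a read was 50.7, 55.7 and 56.5 in these libraries and 2.73 to 20.7 in the others. Per Drd2 read, however, Penk had 7.10, 10.1 and 5.47 reads in these libraries, which lay within the 3.71 to 18.0 of the others. Drd2 had 193, 182 and 413 reads in the 3 libraries, more than in CON replicates 2 and 3 (53 and 119). The cells that hold these transcripts were not resolved in bulk RNA.

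**Figure D4:**
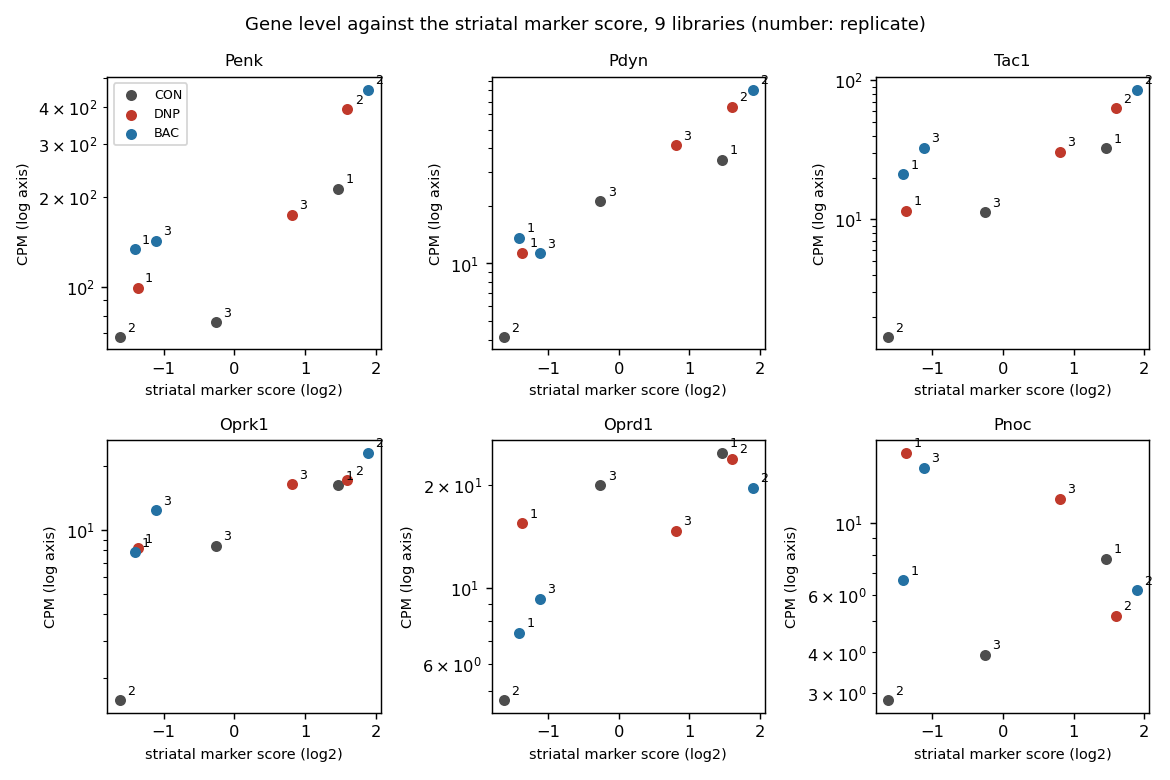
Level in CPM (log axis) of Penk, Pdyn, Tac1, Oprk1, Oprd1 and Pnoc against the striatal marker score (log2) in the 9 libraries, coloured by group and numbered by replicate. Penk and Pdyn climb with the score, Pnoc does not, and for Tac1 the BAC libraries 1 and 3 lie above the CON libraries 2 and 3.

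When the striatal score entered the fit as a covariate, the standard errors of Penk, Pdyn and Tac1 became smaller. In DNP against CON, 2 of 9 genes then had an unadjusted p under 0.05, against 17.2% of all genes, namely Penk (0.61 ± 0.22 SE on the log2 scale) and Tac1 (1.12 ± 0.44). In BAC against CON, 5 of 9 did, against 15.6% of all genes. They were Penk (1.01 ± 0.22), Tac1 (2.10 ± 0.46), Tacr1 (1.97 ± 0.73), Oprk1 (0.97 ± 0.41) and Pdyn (0.65 ± 0.28). None passed the adjusted threshold, and the smallest adjusted p by edgeR's quasi-likelihood test was 0.161, for Penk and Tac1. In BAC against DNP, 0 of 9 genes passed the unadjusted threshold in that fit, against 4.59% of all genes, and Tac1 differed by 0.98 ± 0.45.

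With the hindbrain score as covariate, 2 of 9 genes (Penk at 1.18 ± 0.47 and Pdyn at 1.36 ± 0.58) had an unadjusted p under 0.05 in DNP against CON, where 16.3% of all genes did. In BAC against CON, 3 of 9 did so (Penk at 1.86 ± 0.53, Pdyn at 1.90 ± 0.66 and Tac1 at 2.68 ± 0.98), where 7.9% of all genes did. Without the 3 libraries with hindbrain markers, 1 of 9 did so in BAC against CON, where 4.18% of all genes did. That gene was Penk, at 1.94 ± 0.73 and with an adjusted p of 0.944 by edgeR's quasi-likelihood test, and the fit then held 1 BAC library, which was assumed to vary like those of the other groups. The direction of the Penk difference from CON was the same in all of these fits.

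Among themselves, several of the 9 genes moved together. The closest pair over the 9 libraries was the kappa receptor Oprk1 with Tac1 (Pearson r 0.97 on log2 CPM), followed by the ligand Tac1 with its receptor Tacr1 (0.90), the ligand Pdyn with its receptor Oprk1 (0.89), Penk with Tac1 (0.88) and Penk with Pdyn (0.87). CON replicate 2, the lowest library of all these genes, weighs in each of these values. The ligand Pnoc and its receptor Oprl1 had 0.60, and Penk had 0.58 with the delta receptor Oprd1 and 0.25 with the mu receptor Oprm1. Of the genes outside the family with a mean of at least 5 CPM, the closest to Penk were Por, Spata13 and Smarcd3 (0.97, 0.96 and 0.94), and those closest to Pdyn were Ryr3, Snx7 and Gpr83 (0.98 each). Tac1 was nearest to Kcna5, Slc35d3 and Plppr1 (0.98, 0.98 and 0.97), and Plppr1 also led the list of Oprk1 (0.99), before Sh3gl3 and Tpd52l1 (0.98 each). Tacr1 was nearest to Rerg, Chat and Prkcq (0.97, 0.96 and 0.95), of which Chat makes acetylcholine. Pnoc was nearest to Vmp1, Gal3st1 and Sox10 (0.97 each), and Gal3st1 and Sox10 are genes of oligodendrocytes. Oprm1 was nearest to Rpgrip1l, Ston2 and Trhr (0.95, 0.95 and 0.94), Oprd1 to Itgam, Ppm1e and Slc35b4 (0.99, 0.98 and 0.98) and Oprl1 to Thap4, Nicn1 and Col25a1 (0.92, 0.89 and 0.87).

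The other genes of these pathways were read from 5 lists, and none of their genes passed the adjusted threshold of edgeR's test in any comparison. The shares of all genes to set beside their counts at an unadjusted p under 0.05 were 11.2% in DNP against CON, 2.37% in BAC against DNP and 7.76% in BAC against CON. Of 8 further peptides and receptors of the family, 5 passed the filter. In DNP against CON 4 were higher and 1 lower, and 1, the opioid precursor Pomc, had an unadjusted p under 0.05. Pomc was higher by 1.54 ± 0.65 (edgeR), and this rested on DNP replicate 1 at 11.3 CPM, since the other 8 libraries had 1.51 to 3.12 CPM. Tacr3, the receptor for neurokinin B, was higher in BAC than in CON by 2.56 ± 0.71 (unadjusted p = 0.0060, adjusted p = 0.628, edgeR). Tacr3 measured 2.72, 0.855 and 1.55 CPM in CON and 8.72, 6.56 and 15.1 CPM in BAC, so these groups did not overlap. In DNP it measured 8.33, 2.53 and 1.44 CPM. Its highest libraries, BAC replicates 3 and 1 and DNP replicate 1, were those with hindbrain markers, and the part of regional content was not tested. Tac2, the neurokinin B precursor, did not overlap between BAC and CON either, with 5.87 to 9.81 CPM against 0.998 to 5.37 CPM. These were 2 of the 5 genes, against 13.4% of all genes without overlap in this comparison.

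The genes for cutting and amidating the precursors, not all of them enzymes, showed no common direction. Of 7 such genes, 3 were higher and 4 lower in DNP than in CON. One gene, Scg5, a chaperone of the convertase Pcsk2, had an unadjusted p under 0.05 (0.39 ± 0.17, adjusted p = 0.439, edgeR), against 11.2% of all genes. For 2 of the 7, Scg5 and Pcsk1n, these groups did not overlap, against 18.2% of all genes. In BAC against DNP 3 were higher and 4 lower, and in BAC against CON likewise 3 and 4.

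The peptidases that break down these peptides were lower in DNP than in CON for 8 of 8 genes, with a median log2 difference of −0.61, against 0.01 over all genes. The difference was small for Ece2 (−0.01 ± 0.43), Dpp3 (−0.07 ± 0.13) and Npepps (−0.14 ± 0.17). Of the 8, 2 had an unadjusted p under 0.05, against 11.2% of all genes. Lnpep measured 42.3, 60.2 and 51.6 CPM in CON and 38.9, 15.4 and 11.7 CPM in DNP, a difference of −1.22 ± 0.48 (adjusted p = 0.407, edgeR). All 3 DNP libraries of Lnpep were below all 3 CON libraries, and 2 of 8 peptidases had no overlap between these groups, against 18.2% of all genes. Ece1, an endothelin-converting enzyme that also cuts substance P, differed by −0.77 ± 0.32 and overlapped. Mme, the enkephalin-degrading neprilysin, had higher levels in each BAC library than in each DNP library (1.15 ± 0.65, unadjusted p = 0.111, edgeR). It was the 1 of 8 peptidases without overlap between BAC and DNP, against 6.79% of all genes. In BAC against DNP 5 of 8 peptidases were higher and 3 lower. Of the 8, 1, Lnpep, had an unadjusted p under 0.05 there, against 2.37% of all genes. It was higher in BAC by 1.15 ± 0.48 (adjusted p = 0.998, edgeR), and these groups overlapped. The mean of Lnpep was 51.3 CPM in CON, 22.0 CPM in DNP and 48.8 CPM in BAC. In BAC against CON 2 peptidases were higher and 6 lower, and 2 of the lower ones had an unadjusted p under 0.05, against 7.76% of all genes. The 8 of 8 count in DNP against CON was the same without the 3 libraries with hindbrain markers, with a median of −0.57. In BAC against CON 8 of 8 were then lower, but that fit held 1 BAC library.

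The Gi/o list holds the G proteins, potassium channels, arrestins and receptor kinases through which opioid receptors signal. In DNP 11 of 15 genes were lower than in CON, 5 of them with an unadjusted p under 0.05, against 11.2% of all genes, and for 7 of 15 the groups did not overlap, against 18.2% of all genes. The potassium channel subunit Kcnj3 measured 42.4, 40.9 and 50.4 CPM in CON, 23.4, 27.8 and 23.8 CPM in DNP and 32.3, 29.1 and 25.5 CPM in BAC. Both diabetic groups lay below all 3 controls, and 13.4% of all genes did not overlap in BAC against CON. The difference of DNP from CON was −0.83 ± 0.15 (unadjusted p = 0.00047, adjusted p = 0.294, edgeR). Its partner Kcnj6 differed by −1.28 ± 0.30, with 25.4, 13.4 and 26.9 CPM in CON against 8.69, 9.56 and 8.80 CPM in DNP. The arrestin Arrb1 (−0.84 ± 0.26) and the receptor kinases Grk3 (−0.50 ± 0.18) and Grk2 (−0.32 ± 0.13) made up the 5.

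In BAC against DNP 8 of the 15 Gi/o genes were higher and 7 lower, and 1, Arrb1, had an unadjusted p under 0.05 (0.61 ± 0.26, adjusted p = 0.998, edgeR). In BAC against CON 11 of 15 were lower, 4 of them with an unadjusted p under 0.05 (Kcnj3, Kcnj6, Kcnj9 and Grk3), against 7.76% of all genes. Without the 3 libraries with hindbrain markers, 11 of 15 were lower in DNP against CON and 8 of 15 in BAC against CON, where 1 BAC library was left. Of 6 genes of the Gq pathway, through which the NK1 receptor signals, 5 were lower in DNP than in CON, 3 in BAC than in DNP and 5 in BAC than in CON. Without the 3 libraries with hindbrain markers these counts were 5, 1 and 3, and those of BAC rested on 1 BAC library. Gnaq, the G protein subunit itself, had 249, 206 and 244 CPM in CON, 162, 154 and 143 CPM in DNP and 181, 178 and 184 CPM in BAC. The 3 groups of Gnaq did not overlap, and its difference of DNP from CON was −0.60 ± 0.13 (unadjusted p = 0.0013, adjusted p = 0.294, edgeR). The shares of all genes without overlap were 18.2% in DNP against CON, 6.79% in BAC against DNP and 13.4% in BAC against CON.

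**Figure D5:**
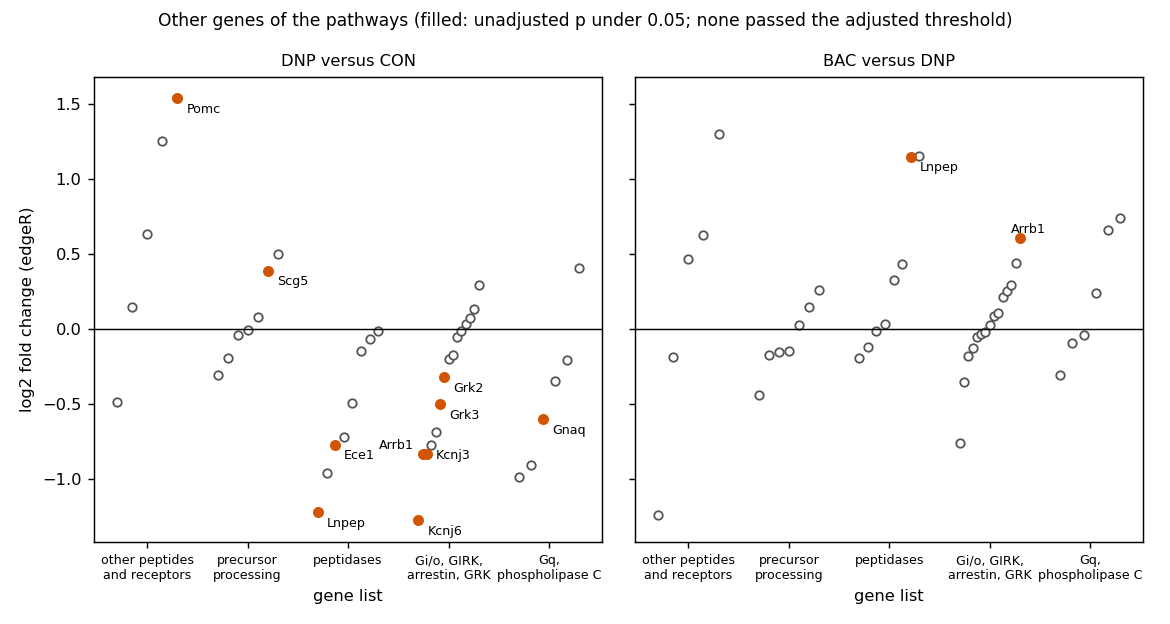
Log2 fold change (y axis, edgeR) of each tested gene of 5 pathway lists (x axis) in DNP against CON (left) and BAC against DNP (right), with filled points for an unadjusted p under 0.05. On the left all 8 peptidases, some of them close to 0, and 11 of 15 Gi/o genes lie below 0, and no point passed the adjusted threshold.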

How the data were processed

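The authors sequenced non-strand-specific poly(A) libraries and deposited raw read counts per gene and FPKM values for 9 libraries. Per the labels and methods, reads were filtered with fastp, aligned to GRCm38 with HISAT2 2.1.0 and quantified with StringTie 1.3.3b. The 9 genes and the 15 lists of 124 genes (113 tested) were chosen with earlier results of these data known. The text names the 9 genes, genes of those lists and, for each of the 9, the 3 genes of at least 5 CPM with the highest correlation.

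Counts were fitted with edgeR 4.0.16 (quasi-likelihood, TMM, filterByExpr) in R 4.3.3, with group as the factor over all 9 libraries and Benjamini-Hochberg adjustment over 18501 genes. CPM were scaled by TMM. The fit was tested on simulated data for DNP against CON, in which 200 of 18501 genes were given a log2 change of 2. It recovered 52.5% of these genes, with 9 false calls, so a gene that was not called can still differ. DESeq2 1.42.0, limma 3.58.1 on log2 FPKM and other settings were alternatives. Replicates differed beyond counting noise in every pair. The p-values measure the spread between these libraries, in which the mouse and the regional content cannot be told apart. Coding sequences were read from GRCm38 with its GENCODE annotation and translated with Biopython 1.88. Protein sequences are not used here.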

Additional observations from a re-analysis of the deposited data

How the results depend on the processing

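No gene of the 9 had an adjusted p under 0.05 in any of the 3 comparisons under any alternative run. Of 432 alternative values of their log2 fold changes, 408 kept their direction and 24 changed sign. In DNP against CON, the count at an unadjusted p under 0.05 was 1 with DESeq2 (13.1% of all genes). It was 2 with either the striatal or the hindbrain score as covariate (17.2% and 16.3% of all genes). The labels name nothing besides the number that libraries with the same replicate number share. Their deviations correlated between −0.58 and 0.56, and with 3 libraries per group such values cannot show whether they were paired. The replicate block gave a count of 1, Pnoc (9.12% of all genes). The block changed no other count. Leaving out 1 library gave 0 to 2 genes, the 2 without CON replicate 1, where the share of all genes ranged from 7.56% to 11.4%. In BAC against CON, the count was 1 with limma on log2(FPKM + 1) (8.25% of all genes) and on log2(FPKM + 0.1) (8.38%). It was 5 and 3 with the striatal and hindbrain covariates (15.6% and 7.9%) and 0 to 4 with 1 library left out (3.22% to 14.3%). Signs changed for Oprm1 in DNP against CON (−0.22 without the hindbrain libraries), for Pdyn in BAC against DNP (0.058 and 0.53 with the striatal and hindbrain covariates, 0.60 without those libraries) and for Oprd1 (0.031 without them in BAC against DNP, and 0.0096 with the hindbrain covariate and 0.24 without them in BAC against CON). With 1 library left out, DNP against CON ranged from −0.21 to 1.22 for Oprm1, −0.32 to 0.54 for Oprd1 and −0.29 to 0.27 for Oprl1. BAC against DNP ranged from −0.69 to 0.84 for Penk, −1.66 to 0.42 for Pdyn, −0.79 to 0.11 for Pnoc, −0.46 to 0.35 for Oprk1 and −0.38 to 1.15 for Tac1, and BAC against CON from −0.68 to 1.48 for Pdyn. The cause of these shifts was not tested. After the data were seen, the list counts were also taken without the 3 hindbrain libraries, which left 1 BAC library. The genes lower in BAC than in DNP then went from 7 to 4 (Gi/o), 2 to 4 (further family) and 3 to 1 (Gq). Those lower in BAC than in CON went from 11 to 8 (Gi/o), 5 to 3 (Gq), 4 to 2 (processing), 6 to 8 (peptidases) and 1 to 2 (further family). Those lower in DNP than in CON went from 1 to 2 (further family). Depth limits Oprm1 most, with 2 to 65 reads per library.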

Other observations

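The lists of regional markers were fitted in the same way, and none of their genes had an adjusted p under 0.05 by edgeR's quasi-likelihood test. In DNP against CON, 14 of 14 striatal markers were higher, with a median log2 difference of 0.41, as were 10 of 10 hindbrain markers (7.20), 5 of 5 tested midbrain dopamine markers (2.52), 4 of 4 tested olfactory bulb markers (2.71) and 6 of 6 thalamic markers (0.36). The olfactory bulb values rested on DNP replicate 2, where Cdhr1 had 116 CPM against 2.53 and 4.14 CPM in DNP replicates 1 and 3, and the hindbrain values on DNP replicate 1. Lower in DNP were 10 of 10 cerebellar markers (−3.18), 6 of 8 markers of cortex (−0.38) and 4 of 6 of hippocampus (−0.56). In BAC against DNP, 7 of 14 striatal markers were higher and 7 lower (−0.02), and 8 of 8 cortical markers were lower (−0.99). Of the habenular markers, 4 of 5 were higher in DNP than in CON (0.92), and of the tested hypothalamic markers 3 of 4 (1.17). In BAC against CON, 13 of 14 striatal markers (0.33) and 4 of 5 habenular markers (1.36) were higher. Of these 4, 2 had an unadjusted p under 0.05 (edgeR), against 7.76% of all genes. So did 9 of 10 hindbrain, 3 of 5 tested midbrain dopamine and 1 of 4 tested hypothalamic markers, all higher in BAC. Among markers lower in BAC, 2 of 8 of cortex and 1 of 6 of hippocampus did so.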
